A study of Mus musculus with 10 samples.

Results

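Ion channels are membrane proteins that let sodium, potassium, calcium or chloride cross the cell membrane down their gradients. In a skeletal muscle fibre, sodium channels carry the action potential, potassium and chloride channels hold the resting potential and end the spike, and the voltage-gated calcium channel of the transverse tubules triggers calcium release for contraction. Many channels combine a subunit that forms the pore with auxiliary subunits that alter its gating or its delivery to the membrane.

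Expression of 30 ion channel genes was followed here, out of 3480 genes in the table analysed. They were all the protein-coding genes with symbols that begin with Kcn, Cacn, Scn, Clcn, Ryr, Itpr, Ano or Hcn, or with Trpc, Trpm or Trpv and a digit. Grouped by conducted ion, 17 belong to potassium channels, 5 to calcium channels and 3 to sodium channels. Of the remaining genes, 3 are anoctamins, 1 (Trpm4) encodes a channel for monovalent cations and 1 (Clcn3) a chloride-proton exchanger. The GENCODE M21 annotation holds 195 protein-coding genes with such names, and the other members of these families were not analysed here.

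RNA was sequenced from tibialis anterior, the fast muscle at the front of the shin, of 5 FoxP1iSkmTg and 5 Control mice, to learn how added Foxp1, a forkhead transcription factor, changes muscle transcripts. FoxP1iSkmTg mice carry FoxP1flSTOP, a Foxp1 transgene that is read once Cre removes a stop cassette, and HSA-MerCreMer, a tamoxifen-activated Cre recombinase under the human skeletal alpha-actin promoter. Control mice carry FoxP1flSTOP without Cre, and all mice were given 80 mg/kg of tamoxifen on 4 days. Per the study's methods all mice were female and 13 to 18 weeks old, and their muscles were taken within days of the last dose, in the first hours of the light phase. No group carried MerCreMer alone, so an effect of Foxp1 and an effect of activated Cre cannot be told apart.

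The table holds genes whose unadjusted p was below 0.05 when the authors compared these groups, so every gene in it was selected on that contrast, and shares of called genes describe the table rather than the transcriptome. Values below are normalized counts, that is read counts divided by the authors' size factor for each mouse, unless FPKM (fragments scaled by gene length and library size) is named. Listed counts came to 6620970 to 8737660 per mouse, of which the ion channel genes took 0.763% to 0.832%. Foxp1 itself stood at 371, 231.7, 389.9, 270.3 and 259.9 normalized counts in Control mice 1 to 5, and at 5352, 2163, 5813, 1423 and 1289 in FoxP1iSkmTg mice 1 to 5. It was higher in every FoxP1iSkmTg mouse than in any Control mouse (log2 fold change 3.39 ± 0.44 SE, edgeR quasi-likelihood adjusted p = 0.000631), and mice 1 and 3 had the highest levels. Of 13 skeletal muscle fibre markers 8 were listed, among them Acta1 at 17255 and Tnnt3 at 8172 FPKM in Control muscle. Their summed level was lower in FoxP1iSkmTg mice (1183650 to 1374430) than in Control mice (1614810 to 1908330), and Neb, Mylpf, Acta1 and Tnni2 passed the test. In whole muscle, fewer fibres of a type and less RNA per fibre cannot be told apart. None of the 8 endothelial, 9 macrophage or 9 smooth muscle and pericyte markers was among the genes analysed, and of the Schwann cell markers Ngfr stood at 18.5 to 32.1 in Control and 6.73 to 26.2 in FoxP1iSkmTg mice. Of the 8 satellite cell markers only Itga7 and Spry1 were listed, and they moved in opposite directions. Itga7 was 1.61-fold higher past the threshold, and Spry1 was 1.18-fold lower and did not pass (edgeR adjusted p = 0.160). Their summed level, 1972 to 2260.1 in Control and 2679 to 3297 in FoxP1iSkmTg mice, was mostly that of Itga7. Cd34, of fibro-adipogenic progenitors, stood at 527 to 648 in Control and 440.4 to 590.1 in FoxP1iSkmTg mice, and Plin1, of adipocytes, at 8.75 to 26.3 and 16.0 to 62.3. The part of these cell types in the results below was not tested.

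Counts were compared with the quasi-likelihood test of edgeR, two-sided, with Benjamini-Hochberg adjustment over 15846 genes and a threshold of 0.05. Of the 30 ion channel genes, 27 passed the filter on low counts and 12 passed the test, against 37.3% of the 3115 tested genes of the table. Of the 27, 5 were higher in FoxP1iSkmTg muscle (background 17.5%) and 7 were lower (background 19.8%), so the shares of 18.5% and 25.9% lay near those of the table. Without FoxP1iSkmTg mouse 3 the lower genes were 4. Values of the groups did not overlap in 12 of the 27, against 42.2% of all tested genes. The median log2 fold change was -0.32 over the tested ion channel genes and 0.13 over all tested genes. The latter is not stable, since it was -0.10, -0.11 and -0.12 without FoxP1iSkmTg mouse 1, 2 and 3, and -0.14 with no filter. The median absolute log2 fold change was 0.73 against 0.38. Both can depend on the counts of the genes, since a gene with few counts entered the table only with a large change. Kcnu1 at -1.72 and Kcnh2 at 1.13, for example, had few counts and did not pass. As a set, though, the ion channel genes had a median Control level of 781 normalized counts, against 352 over all listed genes. The part of counts in the difference between the medians was not tested. Since genes entered the table through this contrast, the medians do not measure how strongly ion channel genes changed.

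Genes that rose included Kcng4 and Kcnn3 of the potassium channels and the cation channel gene Trpm4. The genes that fell were the anoctamins Ano5 and Ano6, the calcium channel subunit gene Cacna2d1, the sodium channel subunit gene Scn4b, the exchanger gene Clcn3, and the potassium channel genes Kcnq5 and Kcnj2. In the calcium and sodium channel families, Clcn3 and the anoctamins, 0 of 12 tested genes were higher past the threshold and 5 were lower, against 17.5% and 19.8% of all tested genes. This pool joins the groups that had no higher call. It leaves out the potassium channels and Trpm4, which also passes sodium and was higher. Among its 5 lower calls, those of Scn4b and Ano6 were lost under 7 and 6 of 16 alternatives. A shared direction in these families was not tested. Among the 14 tested potassium channel genes, 4 were higher and 2 were lower.

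**Figure D1:**
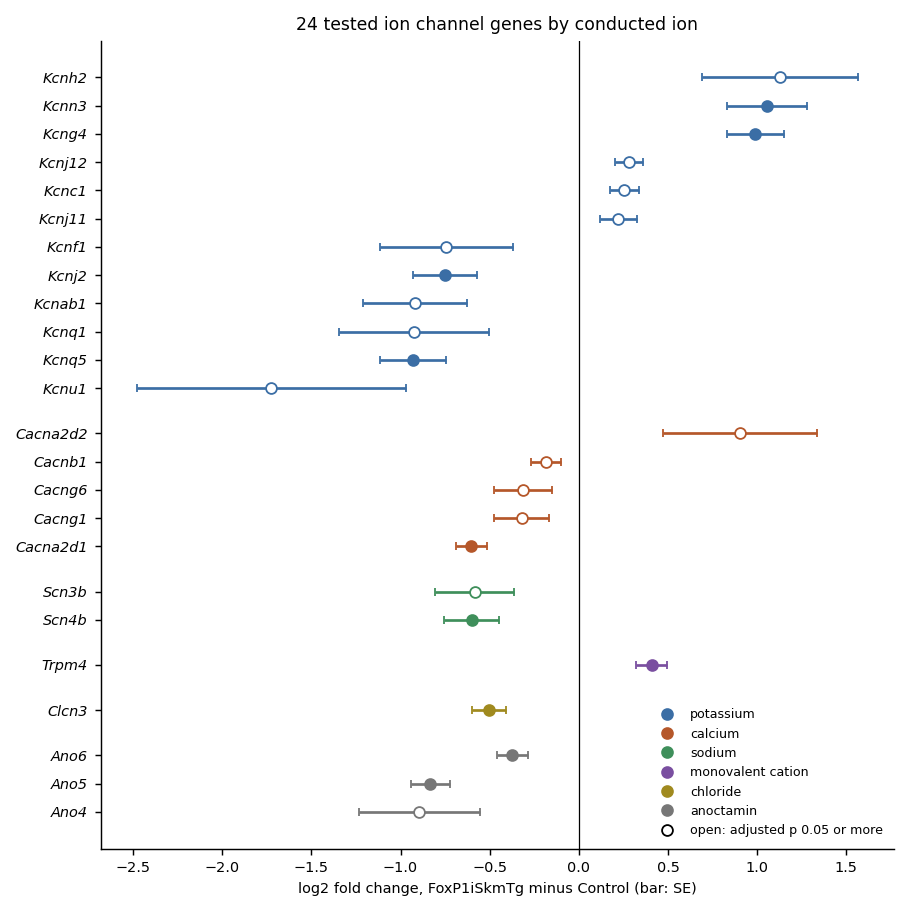
Log2 fold change (FoxP1iSkmTg minus Control, x axis) of 24 tested ion channel genes, with bars for the standard error, coloured by conducted ion. Filled circles mark 10 genes past the threshold, from Kcnn3 at 1.05 to Kcnq5 at -0.93, and Kcnu1 at -1.72 has the longest bar.

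Among the potassium channels, Kcng4 (chr8:119623854-119635680, minus strand, mm10 build) encodes Kv6.4, a so-called silent subunit that forms no channel alone but joins other voltage-gated subunits and shifts their gating. Its normalized counts were 1048, 1127, 726.1, 808.6 and 824 in Control mice 1 to 5 and 1673, 2072, 1439, 1442 and 2384 in FoxP1iSkmTg mice 1 to 5. The groups did not overlap, and mouse 5, which had the least Foxp1 among the FoxP1iSkmTg mice, had the most Kcng4. Kcng4 rose 1.99-fold (log2 fold change 0.99 ± 0.16 SE, edgeR quasi-likelihood adjusted p = 0.00309). Its level moved from 13.5 ± 2.54 to 26.8 ± 6.19 FPKM (SD, n = 5 in each group).

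A further silent subunit gene, Kcng2 (Kv6.2), did not pass the filter on low counts. It had 1.1 to 4.2 normalized counts in Control and 7.1 to 34.0 in FoxP1iSkmTg mice, from 16 and 113 raw counts in all, and the groups did not overlap. With no filter its log2 fold change was 2.64 (edgeR adjusted p = 0.00617). It shares exon bases with an antisense gene. Its most abundant libraries were FoxP1iSkmTg mice 1 and 3. Kcnf1, which encodes the silent subunit Kv5.1, stood at 45.3 ± 23.8 in Control and 27.01 ± 9.37 in FoxP1iSkmTg muscle and did not pass (edgeR quasi-likelihood adjusted p = 0.351).

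Among the other voltage-gated potassium channels, Kcnc1 encodes Kv3.1, a pore with fast opening and closing. Kcnc1 had 3362 to 3896 normalized counts in Control and 3655 to 4865 in FoxP1iSkmTg mice (log2 fold change 0.26 ± 0.08 SE, edgeR quasi-likelihood adjusted p = 0.0914). The ranges overlapped through FoxP1iSkmTg mouse 4, without which the edgeR adjusted p was 0.0306. Without another single mouse it was up to 0.204. Kcnab1 encodes a beta subunit that binds the cytoplasmic side of Kv channels, and it stood at 26.3 to 40.7 in Control and 9.6 to 30.2 in FoxP1iSkmTg mice (edgeR adjusted p = 0.0828). Without FoxP1iSkmTg mouse 5, the one within the Control range, the edgeR adjusted p of Kcnab1 was 0.0156. Without another single mouse it was up to 0.195. Kcnh2 encodes ERG1, a pore best known for repolarising the heart. It ranged from 18.1 to 54.6 in Control and from 28.2 to 159.7 in FoxP1iSkmTg mice, with mice 1 and 3 the highest at 141.4 and 159.7 (edgeR adjusted p = 0.165). The edgeR adjusted p of Kcnh2 was 0.0425 without FoxP1iSkmTg mouse 4 and up to 0.409 without another single mouse. Kcnd2, which encodes the A-type pore Kv4.2, did not pass the filter, with 15 raw counts over all Control mice and 1 over all FoxP1iSkmTg mice (edgeR adjusted p = 0.104 with no filter).

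The Kv7 family carries slow currents that damp excitability. Kcnq5 (Kv7.5, chr1:21398403-21961942, minus strand) is a pore of this family and can join other Kv7 subunits in one channel. Kcnq5 counts were 647.7, 753.4, 809.3, 721.1 and 778.8 in Control mice 1 to 5 and 410.8, 337.9, 605.7, 346.4 and 244.9 in FoxP1iSkmTg mice 1 to 5. The groups did not overlap although FoxP1iSkmTg mouse 3 lay close to Control mouse 1, and Kcnq5 fell 1.91-fold (log2 fold change -0.93 ± 0.19 SE, edgeR quasi-likelihood adjusted p = 0.00938). Kcnq5, with a gene length of 7689 bases, shares 237 exon bases with the antisense gene Gm26580. No source used here states whether reads were counted by strand, so reads within such a shared stretch cannot be told apart.

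Per length, Kcnq5 went from 5.46 ± 0.454 to 2.86 ± 0.988 FPKM (SD, n = 5 in each group). Exon bases are shared with an antisense gene in 8 of the 30 ion channel genes. A related Kv7 gene, Kcnq1, stood at 9.3 to 28.5 normalized counts in Control and 3.2 to 13.1 in FoxP1iSkmTg mice (edgeR quasi-likelihood adjusted p = 0.253), and it shares exon bases with the antisense gene Kcnq1ot1.

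A further potassium channel gene, Kcnn3 (chr3:89520164-89675132, plus strand), encodes SK3, a small-conductance calcium-activated channel known from immature and denervated muscle fibres. Kcnn3 counts were 175.8, 116.4, 129.6, 56.9 and 153.6 in Control mice 1 to 5 and 298.8, 240.6, 264.7, 291.6 and 220.7 in FoxP1iSkmTg mice 1 to 5. The groups did not overlap, and Kcnn3 rose 2.08-fold (log2 fold change 1.05 ± 0.22 SE, edgeR quasi-likelihood adjusted p = 0.0135). Its level stayed low per length, at 0.684 FPKM in Control and 1.42 FPKM in FoxP1iSkmTg muscle. Kcnu1 encodes SLO3, a potassium channel of sperm, and stood at 5.0 to 34.2 counts in Control and 0.0 to 17.1 in FoxP1iSkmTg mice (edgeR adjusted p = 0.230). The edgeR adjusted p of Kcnu1 was 0.0469 without FoxP1iSkmTg mouse 5 and up to 0.631 without another single mouse.

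The inward rectifiers hold the resting potential of the fibre. Kcnj2 (chr11:111066164-111076821, plus strand) encodes Kir2.1, whose loss in humans causes Andersen-Tawil syndrome with periodic paralysis. Kcnj2 counts were 1209, 928.0, 773.5, 589.8 and 598.2 in Control mice 1 to 5 and 564.0, 470.5, 461.5, 416.5 and 525.0 in FoxP1iSkmTg mice 1 to 5. The Control mice spread widely, yet the lowest of them was still above the highest FoxP1iSkmTg mouse. Kcnj2 fell 1.68-fold (log2 fold change -0.75 ± 0.18 SE, edgeR quasi-likelihood adjusted p = 0.0253). This call was lost without Control mouse 2 (edgeR adjusted p = 0.0667) and without FoxP1iSkmTg mouse 2, 3 or 4 (0.0572, 0.0552 and 0.0513).

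Kcnj12 encodes Kir2.2, which can assemble with Kir2.1. Its counts were 1100.1 to 1252 in Control and 1206 to 1635 in FoxP1iSkmTg mice, and it just missed the threshold (log2 fold change 0.28 ± 0.08 SE, edgeR quasi-likelihood adjusted p = 0.0505). The edgeR adjusted p of Kcnj12 was 0.0311 with TMM scaling, 0.0229 without FoxP1iSkmTg mouse 2 and up to 0.118 without another single mouse. In Control muscle Kcnj12 had 23.8 FPKM and Kcnj2 had 8.51 FPKM. The ratio of Kcnj2 to Kcnj12 within a mouse was 0.241 to 0.555 in Control and 0.143 to 0.210 in FoxP1iSkmTg mice, without overlap. Such a ratio restates the changes of both genes and was not tested. Kcnj11 encodes Kir6.2, the pore of the ATP-sensitive channel that opens when fibres run low on energy. It had 2946 to 3926 counts in Control and 3251 to 4528 in FoxP1iSkmTg mice (edgeR adjusted p = 0.291). Kcnj14, which encodes Kir2.4, had 1 raw count over the Control mice and 12 over the FoxP1iSkmTg mice and did not pass the filter (edgeR adjusted p = 0.123 with no filter).

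**Figure D2:**
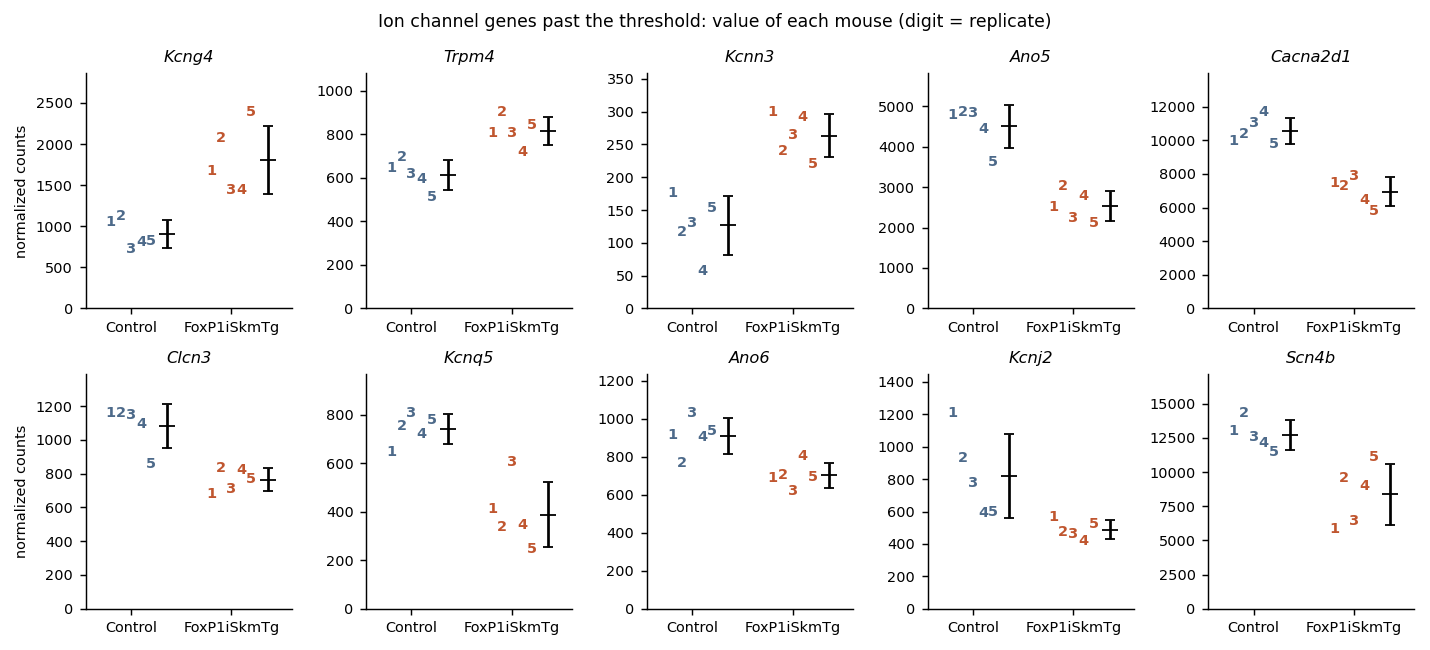
Normalized counts (y axis, from 0) of 10 ion channel genes past the threshold in each Control and FoxP1iSkmTg mouse, drawn as its replicate number, with the mean and SD of each group beside them. The groups overlap only in Ano6, where FoxP1iSkmTg mouse 4 at 802.4 is above Control mouse 2 at 765.9.

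The 5 calcium channel genes all encode auxiliary subunits of voltage-gated calcium channels, and none of the 10 pore genes of that family was analysed here. Cacna2d1 (chr5:15934691-16374511, plus strand) encodes alpha2delta-1, the extracellular subunit that accompanies the skeletal muscle L-type channel and binds gabapentin. Cacna2d1 counts were 9988, 10403, 11012, 11662 and 9760.3 in Control mice 1 to 5 and 7435, 7266, 7872, 6426 and 5792 in FoxP1iSkmTg mice 1 to 5. All FoxP1iSkmTg mice were below all Control mice, and Cacna2d1 fell 1.52-fold (log2 fold change -0.60 ± 0.09 SE, edgeR quasi-likelihood adjusted p = 0.00133). Its level went from 48.1 ± 3.56 to 31.7 ± 3.80 FPKM (SD, n = 5 in each group).

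The other auxiliary subunit genes of calcium channels analysed here did not pass. Cacnb1, the beta-1 subunit on the cytoplasmic side, had 3125 to 3793 counts in Control and 2738 to 3710.1 in FoxP1iSkmTg mice (log2 fold change -0.18 ± 0.09 SE, edgeR adjusted p = 0.271). FoxP1iSkmTg mouse 4 stood apart from the next highest of its group at 3009, and without it the edgeR adjusted p was 0.0406. Without another single mouse the edgeR adjusted p of Cacnb1 was up to 0.624. Cacng1, the gamma-1 subunit, had 2848 to 3458 counts in Control mice. FoxP1iSkmTg mice 1 and 3 had 1706 and 1886 counts of it, below the other 3 at 2814 to 3028 (edgeR adjusted p = 0.292). Cacng6, the gamma-6 subunit, was likewise lowest in these mice, with 1401 and 1317 in mice 1 and 3, 2215 to 2350.0 in the others and 2082 to 2722 in Control mice (edgeR adjusted p = 0.383). Cacna2d2, another alpha2delta subunit, was low, at 8.8 to 17.9 counts in Control and 11.3 to 56.7 in FoxP1iSkmTg mice (edgeR adjusted p = 0.295).

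The 3 sodium channel genes likewise encode auxiliary beta subunits, single-pass proteins that bind the pore, and 0 of the 10 pore genes were analysed. Scn4b (chr9:45138395-45154152, plus strand) encodes beta-4. Scn4b counts were 13020, 14338, 12538, 12131 and 11463 in Control mice 1 to 5 and 5812, 9587, 6421, 8948 and 11078 in FoxP1iSkmTg mice 1 to 5. The groups came close, and mice 1 and 3 were again the lowest of the FoxP1iSkmTg mice. Scn4b fell 1.52-fold (log2 fold change -0.60 ± 0.15 SE, edgeR quasi-likelihood adjusted p = 0.0348). This call was lost without any single Control mouse (edgeR adjusted p from 0.05003 to 0.0888) and without FoxP1iSkmTg mouse 1 or 3 (0.0523 and 0.0711).

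Per length, Scn4b went from 144 ± 12.2 to 94.9 ± 25.1 FPKM (SD, n = 5 in each group). Scn3b, which encodes beta-3, was low, at 50.4 ± 12.5 normalized counts in Control and 33.8 ± 7.06 in FoxP1iSkmTg muscle (edgeR adjusted p = 0.151).

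**Figure D3:**
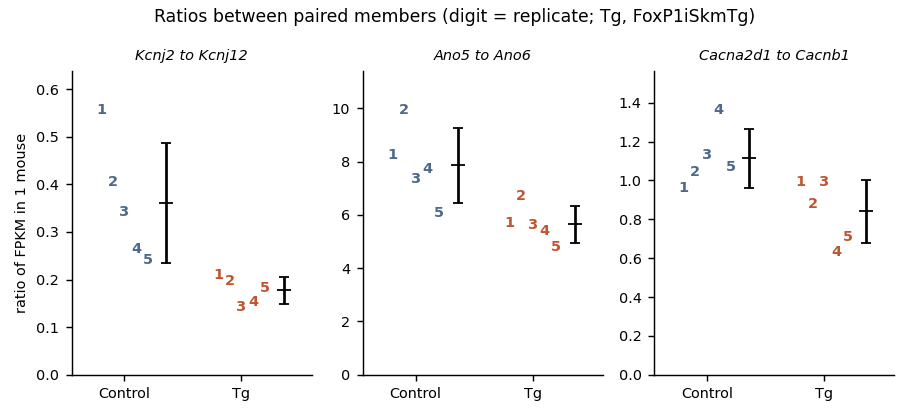
Ratio of FPKM between members of the same family or complex within each mouse (y axis, from 0), drawn as its replicate number, with the mean and SD of each group. The ranges of Control and FoxP1iSkmTg mice are apart for Kcnj2 to Kcnj12, and overlap for Ano5 to Ano6 and Cacna2d1 to Cacnb1.

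Trpm4 (chr7:45302632-45333780, minus strand) encodes a channel that opens with internal calcium and passes sodium and potassium but not calcium. Trpm4 counts were 645.8, 695.2, 619.7, 593.1 and 512.9 in Control mice 1 to 5 and 805.6, 900.4, 807.6, 718.6 and 841.4 in FoxP1iSkmTg mice 1 to 5. The groups did not overlap, and Trpm4 rose 1.33-fold (log2 fold change 0.41 ± 0.09 SE, edgeR quasi-likelihood adjusted p = 0.0133). Kcnj14, Kcnj11 and Kcnc1 lie with Trpm4 within 1.14 Mb of chromosome 7, and none of these 3 passed the test or, for Kcnj14, the filter. Chromosome 7 held 8 of the 30 ion channel genes, 26.7%, against 7.82% of the listed genes. The share of chromosome 7 among all annotated genes of these families was not taken, so this is not a result about position.

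Clcn3 (chr8:60910389-60983300, minus strand) encodes ClC-3, which exchanges chloride for protons across the membranes of endosomes. Clcn3 counts were 1160.2, 1158, 1145, 1094 and 855.1 in Control mice 1 to 5 and 681.0, 834.1, 708.7, 821.0 and 769.9 in FoxP1iSkmTg mice 1 to 5. Control mouse 5 lay far below its group yet above the highest FoxP1iSkmTg mouse. Clcn3 fell 1.42-fold (log2 fold change -0.50 ± 0.09 SE, edgeR quasi-likelihood adjusted p = 0.00659).

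Anoctamins are a family of calcium-activated chloride channels and lipid scramblases, which move phospholipids between the leaflets of the membrane. Ano5 (chr7:51511029-51598709, plus strand) acts in muscle membrane repair, and its loss in humans causes a limb-girdle muscular dystrophy. Ano5 counts were 4789, 4844, 4819, 4425 and 3618 in Control mice 1 to 5 and 2500.2, 3016, 2228, 2768 and 2112 in FoxP1iSkmTg mice 1 to 5. Every FoxP1iSkmTg mouse was below every Control mouse. Ano5 fell 1.78-fold (log2 fold change -0.83 ± 0.11 SE, edgeR quasi-likelihood adjusted p = 0.000705), from 32.5 ± 3.76 to 18.2 ± 2.69 FPKM (SD, n = 5 in each group).

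Ano6 (chr15:95790843-95974751, plus strand) encodes a scramblase that exposes phosphatidylserine, as in activated platelets. Ano6 counts were 912.3, 765.9, 1031, 900.6 and 934.4 in Control mice 1 to 5 and 688.6, 704.7, 620.1, 802.4 and 692.3 in FoxP1iSkmTg mice 1 to 5. It was the only gene past the threshold whose groups overlapped, and it fell 1.29-fold (log2 fold change -0.37 ± 0.09 SE, edgeR quasi-likelihood adjusted p = 0.0221). The call was lost without Control mouse 1, 3 or 5 (edgeR adjusted p = 0.0506, 0.0574 and 0.0505) and without FoxP1iSkmTg mouse 1 or 3 (0.0507 and 0.0525). Ano6, with a gene length of 12269 bases, shares up to 214 exon bases with the antisense genes A130051J06Rik and Gm49172. Reads within such a shared stretch cannot be told apart without strand. Ano4, another member of the family, stood at 11.4 to 17.9 normalized counts in Control and 2.5 to 10.1 in FoxP1iSkmTg mice. These ranges do not overlap, but Ano4 did not pass (edgeR adjusted p = 0.152).

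Levels per length spanned a wide range within the family. In Control muscle, 3 ion channel genes had at least 100 FPKM, 11 had at least 10 FPKM and 12 had under 1 FPKM. Among the highest were Scn4b at 144 ± 12.2 FPKM, Cacng1 at 141 ± 10.04 FPKM, Cacng6 at 67.8 ± 7.20 and Kcnj11 at 53.2 ± 5.92 (SD, n = 5). Scn4b and Cacng1 differed by less than the SD of either. Of the 18 genes with at least 1 FPKM, 11 passed the test. Of the 12 below it, Kcng2, Kcnd2 and Kcnj14 were not tested because of low counts, and of the others only Kcnn3 passed. Low counts leave a test less power, and shares by level were not taken over all genes. This contrast is therefore not a result about ion channel genes. In Control muscle Kcng4 lay below Kcnj12 and Kcnc1, at 23.8 ± 1.18 and 21.5 ± 1.34 FPKM. In FoxP1iSkmTg muscle it lay beside them, at 28.9 ± 3.22 FPKM for Kcnj12 and 25.7 ± 3.07 for Kcnc1.

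**Figure D4:**
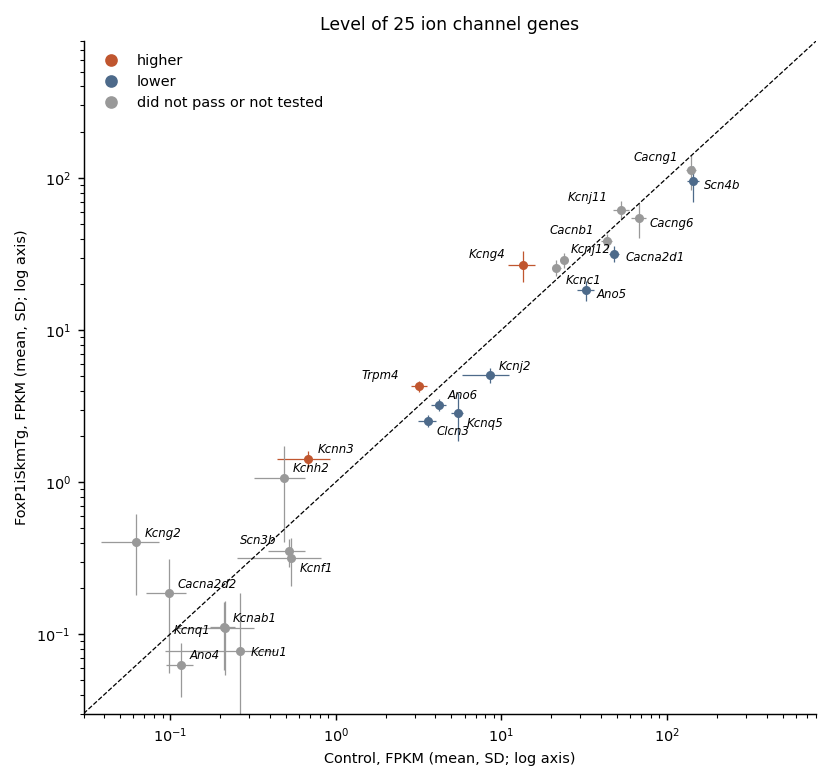
Mean level of 25 ion channel genes in Control (x axis) and FoxP1iSkmTg muscle (y axis), in FPKM on log axes, with SD over 5 mice as bars, and the line of equal levels dashed. Kcnd2 and Kcnj14, the lowest genes, are left out, and Kcnn3, at 0.684 and 1.42 FPKM, lies farthest above the line among the genes drawn as higher.

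The FoxP1iSkmTg mice were not alike. Mice 1 and 3, with 5352 and 5813 counts of Foxp1 against 1289 to 2163 in the others, were the highest pair of their group in 8 of the 27 tested ion channel genes and the lowest pair in 7. Together this is 55.6%, against 46.3% of 3147 listed genes with a mean count of at least 10. The genes in which they were highest included Kcnq5, Kcnh2, Kcnj11, Cacna2d1 and Cacna2d2. They were lowest in Scn4b, Clcn3, Ano6, Cacnb1, Cacng1, Cacng6 and Kcnu1. For Kcnq5 and Cacna2d1 mice 1 and 3 therefore lay nearer to the Control mice than the others did, and for Scn4b, Clcn3 and Ano6 farther from them. The relation of these levels to Foxp1 was not tested.

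**Figure D5:**
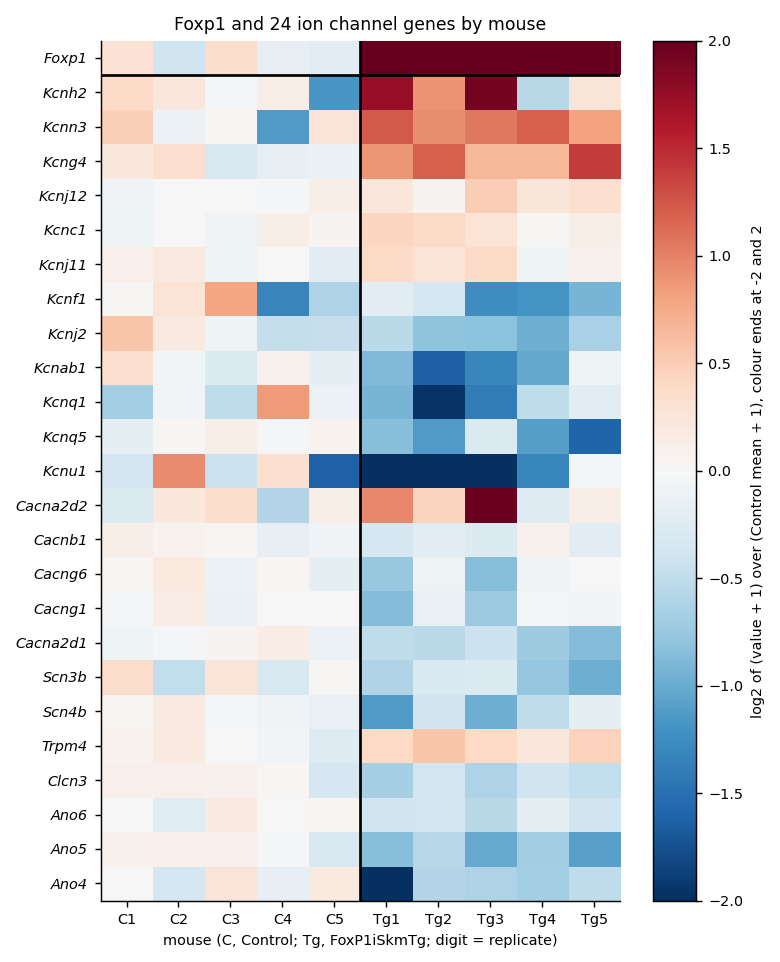
Foxp1 (top row) and 24 tested ion channel genes in each mouse (columns), as log2 of (normalized count + 1) over (Control mean + 1), with colours that end at -2 and 2. Among the FoxP1iSkmTg columns, Tg1 and Tg3 have the deepest colours in Kcnh2 and Scn4b, and Foxp1 is beyond the colour scale in all 5 FoxP1iSkmTg mice.

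Promoter windows of 300 bases, from 250 before to 50 after the start of transcription, were taken from RefSeq (GRCm38.p6, the mm10 assembly) and were found for 19 of the 30 genes, with 24 windows in all. They were searched on both strands for the forkhead motif TGTTTNC, which Fox proteins bind, for the E-box CACGTG, which the clock factors BMAL1 and CLOCK bind, and for the muscle E-box CAGCTG, which MYOD and its relatives bind. No window of an ion channel gene held TGTTTNC, against 20.5% of 32851 promoter windows. CACGTG was found in 3 of the 24 windows, which belong to Kcnab1 and Kcnj2, against 7.15% of all windows, and CAGCTG in 2 windows, of Kcng4 and Kcnj2, against 16.3%. A match is a string of letters and not a measured binding site, and its absence says only that these letters are not in this window.

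Kcnj2, which fell, and Kcng4, which rose, were the only genes past the threshold with a match, and their windows are shown for that reason, 5′ to 3′ on the strand of the gene, with matches in capitals. The Kcnj2 window (chr11:111065914-111066213, plus strand) holds CAGCTG with its first base 206 bases before the start and CACGTG 84 bases before it.
Kcnj2: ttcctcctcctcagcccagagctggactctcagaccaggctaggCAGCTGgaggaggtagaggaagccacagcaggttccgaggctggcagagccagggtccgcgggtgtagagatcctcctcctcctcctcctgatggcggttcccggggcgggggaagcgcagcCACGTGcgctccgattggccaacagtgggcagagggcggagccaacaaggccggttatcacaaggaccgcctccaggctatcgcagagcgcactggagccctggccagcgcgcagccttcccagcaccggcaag
The Kcng4 window (chr8:119635631-119635930, minus strand) holds CAGCTG 130 bases before the start.
Kcng4: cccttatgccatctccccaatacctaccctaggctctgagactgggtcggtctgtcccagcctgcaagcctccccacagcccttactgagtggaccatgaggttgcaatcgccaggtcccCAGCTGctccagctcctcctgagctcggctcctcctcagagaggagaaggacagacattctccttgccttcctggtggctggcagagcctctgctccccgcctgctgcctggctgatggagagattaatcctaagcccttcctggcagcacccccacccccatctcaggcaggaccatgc
Both motifs read the same on either strand and cannot occupy the same bases. Trpm4 was not matched to a window.

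Genes that work beside ion channels were followed in 6 lists, which were chosen with earlier results of these data known. Over all tested genes 17.5% were higher and 19.8% lower. Because of that choice, a list that departs from these shares is not evidence about its genes as a set, and no such difference was tested. Of 34 genes of calcium release and excitation-contraction coupling, 14 were listed and tested, of which 2 were higher and 5 lower. Their median log2 fold change was -0.23. That of all tested genes was 0.13, but it changed sign without FoxP1iSkmTg mouse 1, 2 or 3, so the medians of these lists are not to be read against it. Trdn, which encodes triadin and anchors calsequestrin to the calcium release channel, was 2.27-fold lower, Dhrs7c, of the sarcoplasmic reticulum, was 1.91-fold lower, and Casq2, the calsequestrin of slow and cardiac muscle, was 1.56-fold higher. Of 18 genes of store-operated and mitochondrial calcium entry, 8 were tested, 1 was higher and 4 were lower (median -0.32). Orai1, the pore of store-operated entry, was 1.48-fold lower, Micu3, a regulator of the mitochondrial uniporter, 1.49-fold lower, Vdac3, an outer membrane channel, 1.43-fold lower, and Letm1, of the inner membrane, 1.25-fold higher. The calls of this list went from 5 to 3 without Control mouse 2, and those of the coupling list from 7 to 12 with DESeq2.

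Of 22 genes of sodium, potassium and calcium pumps and exchangers, 12 were tested, 3 were higher and 2 were lower (median log2 fold change 0.20). Slc12a2, the sodium-potassium-chloride cotransporter NKCC1, was 2.27-fold lower, and Slc12a4, the potassium-chloride cotransporter KCC1, was 1.55-fold higher. The beta subunits of the sodium pump moved in opposite directions, with Atp1b1 1.48-fold lower and Atp1b2 1.35-fold higher. The calls of this list went from 5 to 3 without Control mouse 1, 2 or 5, and to 9 with DESeq2. Of 22 genes of the neuromuscular junction or linked to denervation, 13 were tested, 6 (46.2%) were higher and 2 (15.4%) were lower (median 0.71), against 17.5% and 19.8% of all tested genes. Chrna1 and Chrnb1, which encode subunits of the acetylcholine receptor, were 2.402-fold higher and 1.25-fold lower. Lrp4, the receptor for agrin, was 1.603-fold higher, and Dach2, a repressor that falls on denervation, was 5.79-fold lower. Without Control mouse 1, 3 or 5 the calls of this list were 5 in place of 8.

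Of 36 genes of channel anchors and regulators, 17 were tested, 0 were higher and 10 (58.8%) were lower (median log2 fold change -0.37), against 17.5% and 19.8% of all tested genes. Dmd, for dystrophin, was 3.18-fold lower, Fgf13, which binds sodium channel pores, 1.86-fold lower, and the calcineurin genes Ppp3cb and Ppp3ca 1.27-fold and 1.33-fold lower. Without Control mouse 2, 3 or 4 the calls were 6 in place of 10. Of 50 genes of channel families with other names, 4 were listed and 3 tested, Aqp4, Best3 and Panx1, of which 0 passed with edgeR's adjusted p, although 2 had an unadjusted p under 0.05 and 0 passed with DESeq2. The lower skeletal muscle fibre markers stood beside these lists as well, with 0 markers higher and 4 of 8 lower past the threshold. Their part in the ion channel results was not tested.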

How the data were processed

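Poly-A RNA of 10 muscles was sequenced. HISAT2 2.0.5, DESeq2 1.20.0 and build mm10 stand in the submitters' processing notes, but the study's methods give other software for alignment and counting, so which aligner was used is unknown here. For 3480 genes and each mouse the authors deposited read counts, the same counts over a size factor as a normalized signal, and FPKM. Columns of their own comparison hold a log2 fold change, a p-value and an adjusted p-value. The deposited p-value columns were read only to learn how genes were selected and that 15846 genes entered the adjustment. The deposited gene length, another column, was used to work back from counts and FPKM to the library totals behind FPKM. The mean of these totals set the common scale of library sizes in the edgeR fits and the filter, and under TMM the totals were the library sizes. The totals behind FPKM followed the size factors within 0.166%, so they do not give the sequencing depth.

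The tests used edgeR 4.0.16 (quasi-likelihood, glmQLFit and glmQLFTest) in R 4.3.3, scaled by the authors' size factors and filtered by filterByExpr with a minimum count of 10. The authors' scale was kept because TMM assumes that few genes change, and these genes were chosen for changing. Adjusted p-values are Benjamini-Hochberg over 15846 genes, taking the genes not listed as having larger p-values. The SE was derived from the log2 fold change and the F statistic. Replicates are separate mice per the study's methods, and the script was tested on simulated data. Alternatives were TMM, size factors from the listed genes, DESeq2 1.42.0, no filter, a minimum count of 50, a replicate block and leaving out each mouse. Genes of the name rule are named, and called genes whose mean reached 100 normalized counts in a group are given mouse by mouse. Of each accompanying list up to 4 called genes with the smallest adjusted p are named. A few genes enter the counts but are not reported here by name. The ion channel genes and the accompanying lists were chosen with earlier results of these data known.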

Additional observations from a re-analysis of the deposited data

Results flagged for a closer look

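In 5 of 56 groups of 5 mice (Foxp1 and ion channel genes, in each group), 1 mouse lay far from the others by Dixon's criterion, where chance gives about 1 in 20, or 2.8. Ano4 stood at 2.53 normalized counts in FoxP1iSkmTg mouse 1, with the next lowest at 8.86. Cacnb1 stood at 3710.1 in FoxP1iSkmTg mouse 4, with the next highest at 3009. Clcn3 stood at 855 in Control mouse 5, with the next lowest at 1094. The 2 remaining values rest on 1 read each, with Kcnd2 at 0.842 in FoxP1iSkmTg mouse 1 and Kcnj14 at 1.05 in Control mouse 3, where the other mice of the group were at 0.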

How the results depend on the processing

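Of 424 values of ion channel genes under the alternatives, 395 kept their direction and side of the threshold, 17 lost the threshold, 12 gained it and 0 changed sign. The count past the threshold was 12, with 13 under TMM, 13 with size factors of the listed genes, 15 with DESeq2, 14 with no filter and 12 with a minimum count of 50. Leaving out each mouse in turn gave 9 to 15 calls, of which 5 to 7 were higher and 4 to 9 lower, the lowest without FoxP1iSkmTg mouse 3, and a Foxp1 log2 fold change of 3.07 to 3.59. Of the 12 calls, 9 held under every alternative run, and those of Ano6, Kcnj2 and Scn4b were lost under some. Kcnj12 passed under TMM, under size factors of the listed genes (edgeR adjusted p = 0.0448), with no filter (0.0459) and with DESeq2 (0.0157), and Kcnab1 and Kcnc1 passed with DESeq2 (0.0454 and 0.0498). With no filter, of the genes with few reads, Kcng2 passed and Kcnd2 and Kcnj14 did not. Replicate numbers share only a number across groups: correlations between deviations from the group means ran from -0.0227 to 0.0287 for mice with one number, and 0 of 5 matched their own number best. Under a replicate block 11 ion channel genes passed, 5 higher and 6 lower, as did 907 of all tested genes, the Foxp1 log2 fold change was 3.15, and Ano6 did not pass (edgeR adjusted p = 0.0605). Of the genes in the accompanying lists 35 passed, with 51 for DESeq2 and 26 to 36 when a mouse was left out, and under the block the junction list had 5 calls and the channel families with other names 1. Over all tested genes 1161 passed, with 1624 for DESeq2, and 835 to 1229 when a mouse was left out. Higher genes made up 46.9% of these calls on the authors' scale and 56.3% under TMM, which moved the median by 0.03. The median itself was -0.12 to 0.14 with single mice left out.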
